A study of Mus musculus with 4 samples.

Results

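Marker genes of the liver's blood vessel lining and of its macrophages were followed across liver tumours and normal liver of mice. The set held 31 of the 25793 genes in the count tables. It was chosen by gene symbol as 4 markers of sinusoidal endothelium, 10 of endothelium in general, 6 of Kupffer cells and 11 of myeloid cells in general. All 31 symbols were found in every table. Of the 4 RNA sequencing libraries, 2 were labelled liver tumours of beta-2SP+/-; SMAD3+/- mice (tumours 1 and 2), which carry 1 intact copy each of the genes for beta-2 spectrin and SMAD3, a signalling pair of the TGF-beta pathway. The other 2 were normal liver, 1 of that same genotype and 1 of wild type genotype. The labels give no agent, age or number of animals, and do not say whether the tumours came from separate animals. The submitters' short descriptions name T cells for both tumours and hepatocytes for both normal libraries.

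The sinusoids of the liver are lined by a fenestrated endothelium that clears waste molecules from blood through scavenger receptors such as stabilins and C-type lectins. Vascular growth factors act on endothelial cells through receptor tyrosine kinases, the VEGF receptors and TIE receptors. Kupffer cells are the resident macrophages of the sinusoids, depend on signalling through the CSF1 receptor, and take up bacteria, old red cells and debris. Other macrophages, recruited as monocytes, share the general myeloid markers but not most Kupffer markers. In a bulk library, fewer cells of a type and less RNA per cell cannot be told apart.

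Library depth ran from 11049931 to 18448621 gene counts, which put the floor of 3 counts at 0.202 and 0.161 CPM (counts relative to library size after TMM scaling) in tumours 1 and 2 and at 0.33 CPM in normal liver. The normal tables were not separate measurements. Of 2632 genes with a mean of 1 to 5 counts, 56.8% had the same count in both tables, where 22% would be equal between independent libraries, and the table labelled wild type was the lower in 3.53%. For the tumours the share was 13.1% of 2299 genes. Of the 31 marker genes, 30 had a higher count in the table labelled wild type, 1 (Cd34, 6 counts in each) was equal and 0 were lower. The rounded mean of both tables therefore served as 1 normal library. Spnb2, the gene of beta-2 spectrin, stood at 16607, 19149, 3364 and 3549 counts in tumour 1, tumour 2, the normal table labelled double heterozygous and that labelled wild type, and Smad3 at 4521, 2174, 426 and 460. Neither differed between tumours and normal liver past the test (edgeR adjusted p 0.261 and 0.208), and total counts do not show which copy of a gene is transcribed.

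Promoter sequence was taken from RefSeq (GRCm38.p6, another build than the mm9 named for the counts), where 23 of the 31 genes had an entry. The stretch of 250 bases before each start site was searched on both strands for GGAAGT, a form of the purine-rich core that ETS family factors recognise, among them ERG and FLI1 of endothelium and PU.1 of macrophages. It was present in 12 of the 23 genes, or in 14 of their 26 promoter entries (53.8%), and in 19.7% of all 32851 promoters of the same length. The letters TGATTGG, which hold the inverted CCAAT box known from MHC class II promoters, were in 2 of the 23 genes (Cd68 and H2-Aa) and in 7.23% of all promoters. The shorter CCAAT, which overlaps that motif, was in 7 of the 23 and in 33.8% of all. The windows below show 8 genes with different behaviour in the tumours, each 5′ to 3′ on the strand of the gene, with the match in capitals (GGAAGT or its reverse complement ACTTCC, and TGATTGG in H2-Aa). Kdr and Tie1 stood at 9 counts or fewer in either tumour, Flt1 was high in tumour 2, Clec4f, Vsig4, Timd4 and H2-Aa were at 0 in both, and Lyz2 was high in tumour 1.
Kdr (chr5:75978606-75978705, minus strand): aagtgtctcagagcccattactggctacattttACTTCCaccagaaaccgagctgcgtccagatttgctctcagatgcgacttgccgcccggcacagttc
Tie1 (chr4:118489872-118489971, minus strand): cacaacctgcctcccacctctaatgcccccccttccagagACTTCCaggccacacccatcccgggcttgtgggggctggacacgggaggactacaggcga
Flt1 (chr5:147726012-147726111, minus strand): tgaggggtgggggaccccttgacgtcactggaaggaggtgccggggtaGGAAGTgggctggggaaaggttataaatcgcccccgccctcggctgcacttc
Clec4f (chr6:83656117-83656216, minus strand): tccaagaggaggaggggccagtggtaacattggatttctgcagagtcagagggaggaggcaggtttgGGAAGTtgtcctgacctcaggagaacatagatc
Vsig4 (chrX:96293442-96293541, minus strand): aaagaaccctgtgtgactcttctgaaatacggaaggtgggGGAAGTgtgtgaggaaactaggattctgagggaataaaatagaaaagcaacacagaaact
Timd4 (chr11:46810687-46810786, plus strand): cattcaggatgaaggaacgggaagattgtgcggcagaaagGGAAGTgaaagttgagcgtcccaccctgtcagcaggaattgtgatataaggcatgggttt
Lyz2 (chr10:117282313-117282412, minus strand): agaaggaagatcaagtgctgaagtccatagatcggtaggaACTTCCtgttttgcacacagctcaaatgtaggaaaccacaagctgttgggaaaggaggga
H2-Aa (chr17:34287824-34287923, minus strand): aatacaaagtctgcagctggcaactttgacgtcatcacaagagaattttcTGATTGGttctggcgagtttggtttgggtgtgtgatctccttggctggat
The match lay from 33 bases before the start in Clec4f to 217 in Kdr. Genes with the same letters thus included some at 0 in both tumours and some at or above the normal level in 1 tumour. A match is a description of the sequence and not a binding site.

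Summed over the 31 genes, the level was 102 and 87.5 CPM in tumours 1 and 2, against 879 and 859 CPM in the normal tables labelled double heterozygous and wild type. With edgeR's quasi-likelihood test (Benjamini-Hochberg adjusted p under 0.05 over 14484 genes), 7 of the 30 tested members fell in the tumours, where 5.19% of all genes tested fell. These were Stab2, Clec4g, Kdr, Tie1, Clec4f, Cd5l and Cd163. None of the 30 rose (0 at the adjusted threshold, 0 at an unadjusted p under 0.05 and 0 by DESeq2), where 2.19% of all genes tested rose. At an unadjusted p under 0.05, 20 members were lower. The fit has 1 residual degree of freedom, from the spread between the tumours. The low-count filter kept 30 members. Of these, 15 passed it only through normal liver, all 7 that were called among them, so their direction was set by the filter and their count carries no weight of its own. Fcgr1 did not pass and was not tested.

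By size alone, the tumour mean of 21 members was over 4-fold below normal, where 17.5% of all genes tested were. It was over 4-fold above in 1 member (Cd34), where 20.4% of all were. Both tumours stood below both normal tables in 24 members, against 37.6% of all genes, and above both in 0, against 41.0%. They stood on opposite sides of both normal tables in 5 members (Flt1, Esam, Marco, Cd68 and Lyz2), against 12.7%. The median log2 fold change of the tested members was -4.94, or -4.23 with the genes at 0 in both tumours placed at their bound. The median over all genes tested was 0.18. Of the 30 tested members, 15 passed the low-count filter only through normal liver, which largely set their side. These counts, the count at an unadjusted p and the median of the members therefore carry no weight of their own. With library totals in place of TMM the median of all genes was 1.56. The split of all genes was then 472 lower and 631 higher in place of 752 and 317, and 3 members were called (Stab2, Tie1 and Clec4f).

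**Figure D1:**
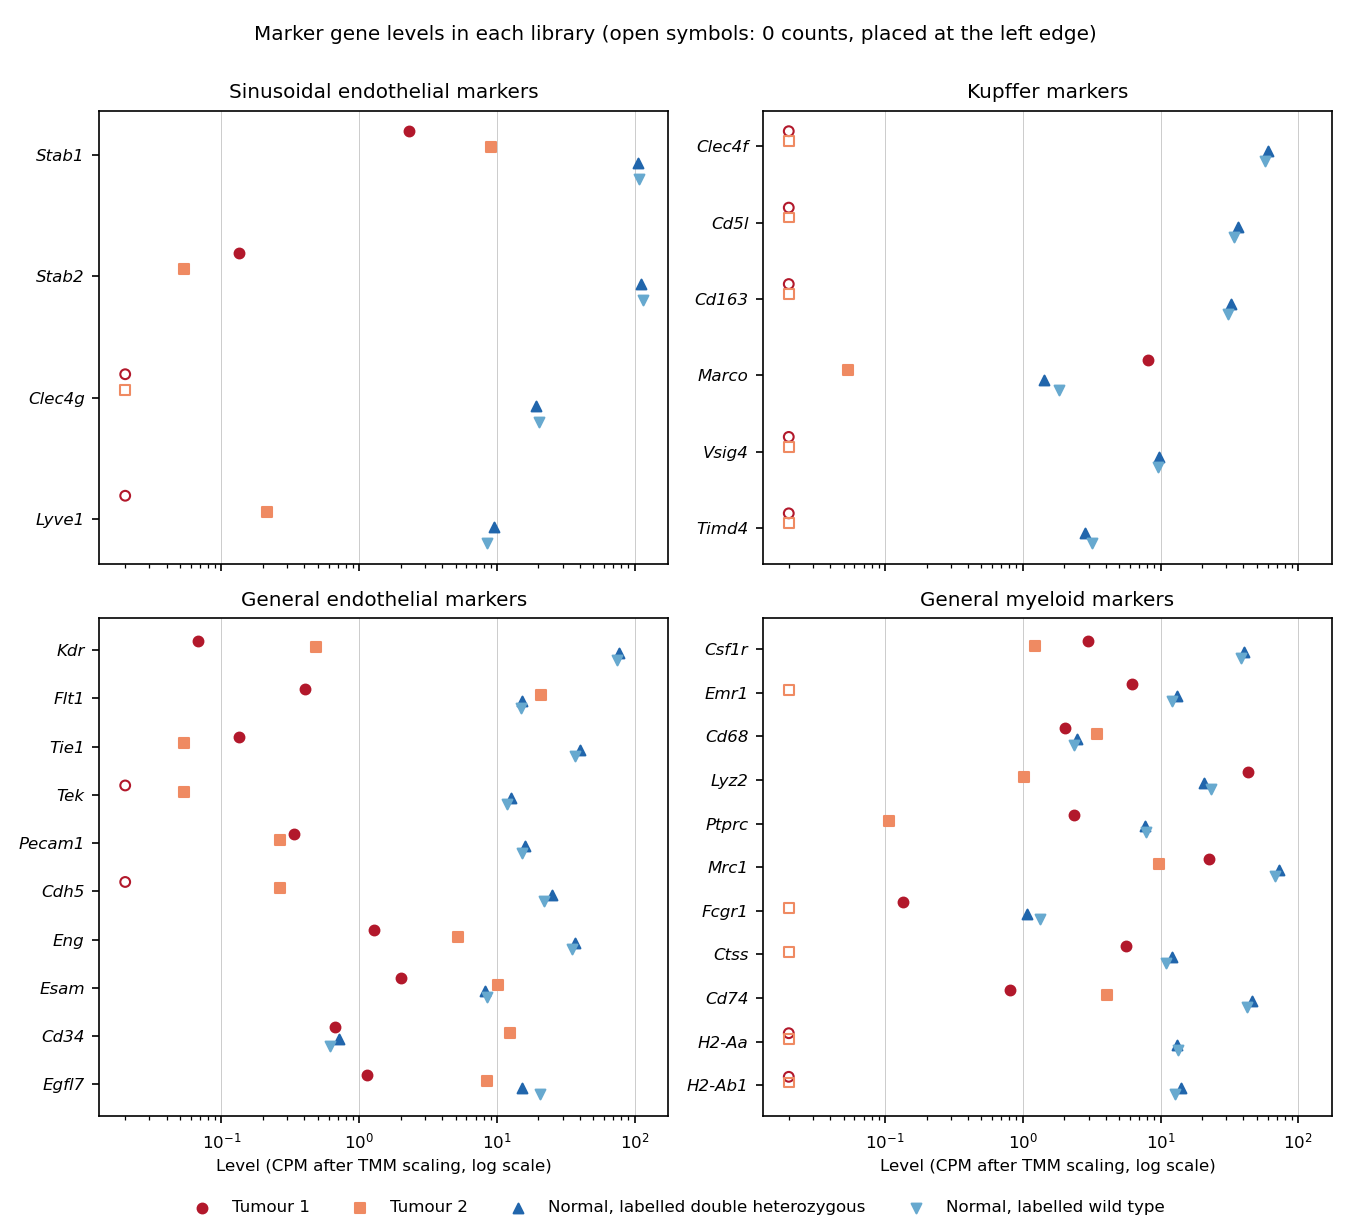
Level of each of the 31 marker genes in every library (x axis, CPM after TMM scaling, log scale), 1 panel for each of the 4 marker groups; open symbols at the left edge are counts of 0. The normal tables lie close together in each row, and the tumour points lie to their left for most genes, with 8 genes at 0 in both tumours.

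The sinusoidal endothelial markers were low in both tumours. All 4 stood below both normal tables in each tumour, where 37.6% of all genes tested did. Past the test, 2 of the 4 fell, where 5.19% of all did. Those 2 passed the low-count filter only through normal liver, which set their direction. The summed level of the 4 was 2.42 and 9.37 CPM in tumours 1 and 2, against 245 and 250 CPM in the normal tables. Stab2 encodes stabilin-2, the scavenger receptor that clears hyaluronan. It had 2 and 1 counts in tumours 1 and 2, and 933 and 1110 in the normal tables labelled double heterozygous and wild type. The level in normal liver was 1256-fold that of the summed tumours (counting interval 429 to 6101), and the fitted log2 fold change was -10.14 (SE 0.83, adjusted p 0.018 by edgeR). Clec4g, which encodes the sinusoidal lectin LSECtin, had 0 counts in both tumours and 161 and 196 in the normal tables. It was at least 108-fold lower in the tumours (edgeR adjusted p 0.0488). That call was lost with library totals (0.0697) and with the table labelled double heterozygous as the only normal library (0.0511), over a range of 3.65e-06 to 0.0697 across the alternatives.

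Stab1 and Lyve1 did not pass the test. Stab1, the related scavenger receptor stabilin-1 that macrophages can also carry, had 34 and 170 counts in tumours 1 and 2 against 892 and 1055 in the normal tables. Its log2 fold change was -4.23 (SE 0.96, edgeR adjusted p 0.08). Lyve1, a hyaluronan receptor of sinusoidal and lymphatic endothelium, had 0 and 4 counts in the tumours against 80 and 82 (log2 fold change -6.21, SE 1.87, adjusted p 0.129). Stab1 was thus the sinusoidal marker with counts above the floor in both tumours, at 2.29 and 9.1 CPM.

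Of the 10 general endothelial markers, 2 fell (Kdr and Tie1), where 5.19% of all genes tested fell, and 0 rose. At an unadjusted p under 0.05 by edgeR, 6 were lower. The summed level of the 10 was 6.05 and 58.3 CPM in tumours 1 and 2, against 247 and 240 CPM in the normal tables. Both tumours were below both normal tables for 7 of the 10, against 37.6% of all genes tested. Kdr encodes VEGF receptor 2, the main signalling receptor for VEGF-A. It had 1 and 9 counts in the tumours and 646 and 728 in the normal tables, 258-fold lower in the tumour mean (log2 fold change -8.01, SE 1.14, edgeR adjusted p 0.0356). The adjusted p was 0.0544 with library totals. Tie1, the orphan receptor that partners TIE2, had 2 and 1 counts against 340 and 358 (log2 fold change -8.58, SE 0.96, adjusted p 0.0251). Normal liver was 429-fold above the summed tumours for Tie1 (counting interval 146 to 2090). For both receptors the groups did not overlap, which carries little weight, since both passed the low-count filter only through normal liver.

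A further 3 general endothelial markers had 5 counts or fewer in either tumour. Cdh5, the junction protein VE-cadherin, had 0 and 5 counts in tumours 1 and 2, against 211 and 214 in the normal tables. Its log2 fold change was -7.29 (SE 1.65, edgeR adjusted p 0.0792). Pecam1, the adhesion molecule CD31, had 5 counts in each tumour against 134 and 149 (log2 fold change -5.66, SE 1.04, adjusted p 0.0538). Tek, which encodes the angiopoietin receptor TIE2, had 0 and 1 counts against 106 and 116. It did not pass either (adjusted p 0.0575), and the ratio of normal liver to the summed tumours was 409, with a counting interval of 72 to 16308. These 3 genes were low in both tumours without passing the adjusted threshold. All 3 passed the low-count filter only through normal liver, which set their direction. They were called without that filter, by DESeq2, and with the normal tables, which share counts, as separate libraries. Those calls carry no weight of their own.

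The other 5 general endothelial markers were detected in both tumours, and higher in tumour 2. Flt1, VEGF receptor 1, had 6 and 391 counts in tumours 1 and 2 against 128 and 145 in the normal tables. That is 0.403 and 20.9 CPM against 15.2 and 14.9, so tumour 1 lay below and tumour 2 above normal liver (log2 fold change -0.49, SE 1.99, edgeR adjusted p 0.89). Without tumour 2 the log2 ratio was -4.75, and without tumour 1 it was 0.47. Esam, an adhesion molecule of endothelium and platelets, had 30 and 190 counts against 69 and 82. On the CPM scale it too lay on opposite sides, at 2.02 and 10.2 against 8.18 and 8.4 (log2 fold change -0.45, SE 1.26, adjusted p 0.837). The fitted direction of both genes turned with library totals, to log2 fold changes of 0.91 for Flt1 and 0.94 for Esam, neither called.

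Cd34 is a sialomucin of vascular endothelium that mature sinusoids carry little of, and of blood and tissue progenitors. It had 10 and 231 counts in tumours 1 and 2 and 6 in each normal table, 0.672 and 12.4 CPM against 0.711 and 0.615. It was the 1 member that passed the low-count filter only through a tumour. Tumour 2 alone stood high: the log2 fold change was 3.29 (SE 2.24, edgeR adjusted p 0.39), and the log2 ratio without tumour 2 was 0.02. Egfl7, a secreted vessel factor, had 17 and 159 counts against 129 and 199 (log2 fold change -1.90, SE 1.31, adjusted p 0.397). Eng, the TGF-beta co-receptor endoglin of endothelial and some stromal cells, had 19 and 97 counts against 313 and 341 (log2 fold change -3.47, SE 1.02, adjusted p 0.125). Both lay below both normal tables in each tumour.

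**Figure D2:**
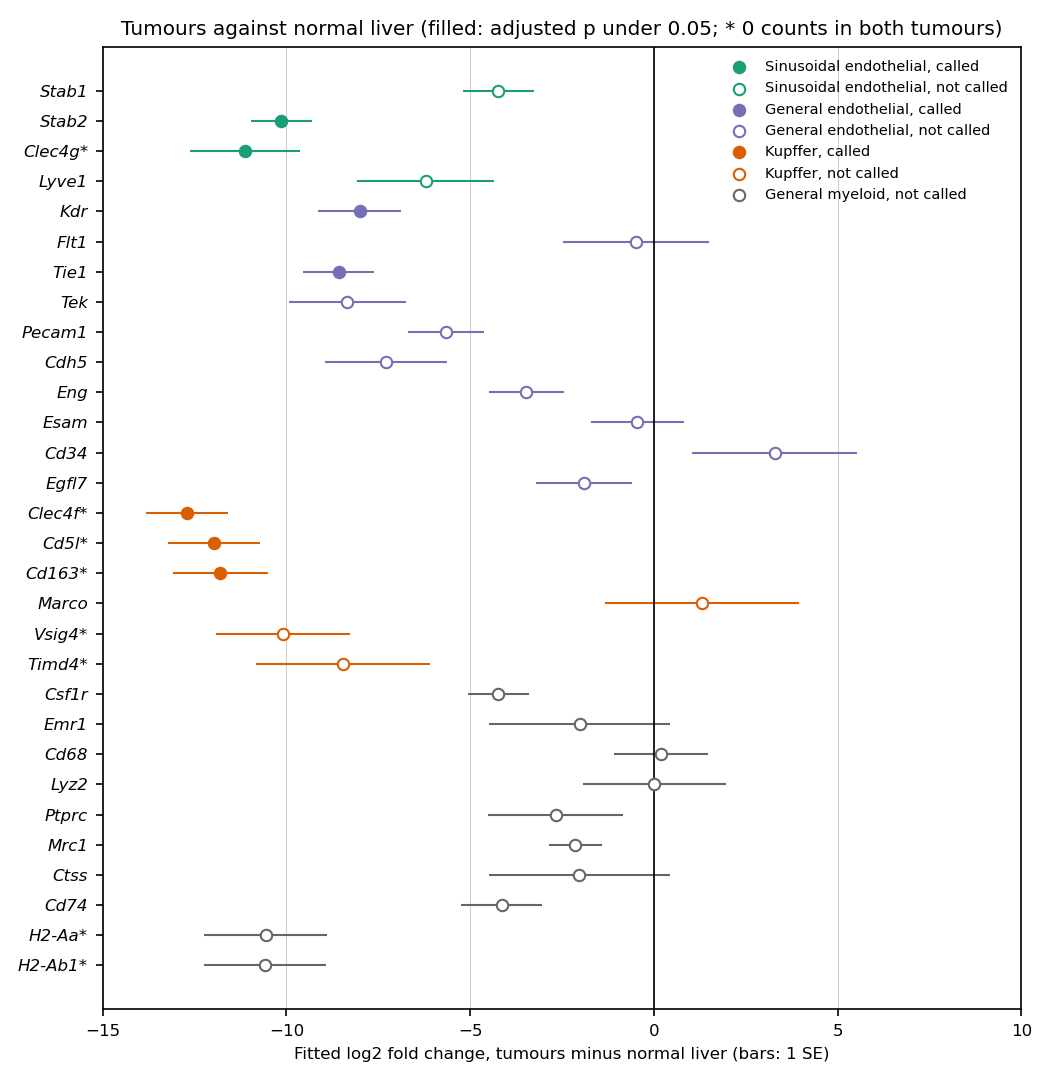
Fitted log2 fold change of the 30 tested marker genes, tumours minus normal liver (x axis, bars 1 SE), coloured by marker group, with filled points for adjusted p under 0.05 and asterisks for genes at 0 in both tumours, whose fitted size depends on the prior count. The 7 filled points are Stab2, Clec4g, Kdr, Tie1, Clec4f, Cd5l and Cd163, all on the side lower in tumours.

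Kupffer cell markers were at or near 0 in the tumours apart from Marco in tumour 1. Of the 6, 3 fell past the test (5.19% of all genes tested did), 0 rose, and 5 had 0 counts in both tumours. The 3 that fell passed the low-count filter only through normal liver, which set their direction. Clec4f, a lectin receptor found on Kupffer cells in the mouse, had 0 counts in both tumours and 509 and 556 in the normal tables, at least 323-fold lower (edgeR adjusted p 0.0276, at most 0.0414 over the alternatives). Cd5l, the secreted macrophage protein AIM, had 308 and 335 counts in the normal tables and was at least 195-fold lower in the tumours (adjusted p 0.0356). Cd163, the haemoglobin scavenger receptor, had 272 and 300 and was at least 173-fold lower (adjusted p 0.0374). With library totals the adjusted p was 0.0537 for Cd5l and 0.0574 for Cd163.

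Vsig4, the complement receptor CRIg that captures opsonised bacteria, had 82 and 94 counts in the normal tables and 0 in both tumours, which makes it at least 53.3-fold lower (edgeR adjusted p 0.0755). Timd4, the phosphatidylserine receptor TIM-4 of long-lived resident macrophages, had 24 and 31 counts in normal liver and 0 in the tumours. Its bound was at least 17.0-fold lower, without passing the test (adjusted p 0.144). Marco, a scavenger receptor for bacteria on some macrophages, did not follow these genes. It had 121 and 1 counts in tumours 1 and 2 and 12 and 18 in the normal tables, so that tumour 1 was above normal liver and tumour 2 below it (log2 fold change 1.30, SE 2.64, adjusted p 0.772). The summed level of the 6 Kupffer markers was 8.13 and 0.0536 CPM in tumours 1 and 2, against 143 and 137 CPM in the normal tables, and Marco made up all of what the tumours held.

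The 11 general myeloid markers showed no called change in either direction (0 of 10 tested lower and 0 higher by edgeR, with 5 lower and 0 higher at an unadjusted p under 0.05, and 4 lower and 0 higher by DESeq2). Their summed level was 85.7 and 19.8 CPM in tumours 1 and 2 against 244 and 233 CPM in the normal tables. Both tumours were below both normal tables for 8 of the 10, against 37.6% of all genes tested. Csf1r encodes the receptor for CSF1 and IL-34 on which macrophages depend. It had 44 and 23 counts in the tumours against 342 and 375 (log2 fold change -4.23, SE 0.84, adjusted p 0.0619), and 14.9% of its sequence words of 31 bases also occur in another gene. Mrc1, the mannose receptor of both sinusoidal endothelium and macrophages, had 331 and 183 counts against 616 and 665 (log2 fold change -2.14, SE 0.72, adjusted p 0.153). Both were detected in each tumour and lay below normal liver in each.

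Pan-leukocyte and macrophage genes split the tumours. Ptprc, which encodes CD45 of all white blood cells, had 35 and 2 counts in tumours 1 and 2 against 65 and 77 in the normal tables. Emr1, the macrophage antigen F4/80, had 93 and 0 against 111 and 119, and Ctss, the lysosomal protease cathepsin S, had 84 and 0 against 103 and 106. These 3 genes were lower in tumour 2 than in any other library, and in tumour 1 they stood at 2.35, 6.25 and 5.65 CPM, below normal liver as well. Their log2 fold changes were -2.67 (SE 1.84), -2.02 (SE 2.46) and -2.03 (SE 2.46) in that order, with adjusted p values of 0.396, 0.627 and 0.624 by edgeR.

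Lyz2, lysozyme of macrophages and neutrophils, had 644 and 19 counts in tumours 1 and 2 against 174 and 225 in the normal tables, 43.3 and 1.02 CPM against 20.6 and 23.1. Tumour 1 lay above and tumour 2 below normal liver, and the fitted log2 fold change was 0.01 (SE 1.94, edgeR adjusted p 0.998). Of its 31-base words, 32.8% also occur in another gene, so its counts are uncertain. Cd68, a lysosomal glycoprotein of macrophages, had 30 and 65 counts against 21 and 23, 2.02 and 3.48 CPM against 2.49 and 2.36 (log2 fold change 0.19, SE 1.28, adjusted p 0.937). It was the 1 myeloid member with tumour 1 below and tumour 2 above normal liver. Fcgr1, the high-affinity IgG receptor CD64, had 2 and 0 counts against 9 and 13 and was not tested.

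MHC class II molecules present antigen on macrophages, dendritic cells, B cells and sinusoidal endothelium. H2-Aa and H2-Ab1 encode the chains of the class II molecule I-A. H2-Aa had 0 counts in both tumours and 111 and 130 in the normal tables, at least 73.3-fold lower (edgeR adjusted p 0.0614). H2-Ab1 had 0 in both tumours and 119 and 125 in the normal tables, at least 73.9-fold lower (adjusted p 0.061). Their chaperone Cd74, the invariant chain, had 12 and 77 counts in tumours 1 and 2 against 388 and 412 (log2 fold change -4.14, SE 1.10, adjusted p 0.105). So Cd74 was detected in both tumours where the chains were not. Of the 10 further class II genes, 7 were tested and 0 passed in either direction by edgeR (1 lower and 0 higher at an unadjusted p under 0.05, and the same counts by DESeq2), with a median log2 fold change of -0.34. Their regulators Rfx5 (271, 222, 109 and 137 counts in tumours 1 and 2 and the normal tables, with 24% shared sequence) and Rfxap (142, 208, 74 and 76) were detected in every library. Ciita, the class II transactivator, chosen here after its values were seen, had 1, 2, 11 and 14 counts. H2-Eb1, a class II chain gene chosen the same way, had 4, 2, 95 and 105 (log2 fold change -5.82, edgeR adjusted p 0.0755). The median pools such genes with Rfx5 (0.15), Rfxank (-0.34) and Rfxap (0.33), and H2-DMa was at 0.17.

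Between the tumours there is 1 library a side, so no test was made. Of the 31 members, 15 reached 1 CPM in a tumour and 16 stayed under it in both. Over 4-fold apart were 10 of the 15, of which 5 were higher in tumour 1, where 5.24% of 12917 genes were, and 5 in tumour 2, where 9.27% of all were. The 5 higher in tumour 1 were all macrophage or leukocyte markers. Marco was 152-fold higher there (95% counting interval 26.7 to 6048), Lyz2 42.5-fold (27 to 71.1) and Ptprc 22-fold (5.64 to 189). Emr1 and Ctss, at 0 in tumour 2, were at least 38.8-fold and at least 35.1-fold higher. The 5 higher in tumour 2 held 4 endothelial markers. Flt1 was 51.9-fold higher (23.6 to 142), Cd34 18.4-fold (9.83 to 38.9), Egfl7 7.45-fold (4.51 to 13.1) and Esam 5.05-fold (3.42 to 7.68). The fifth was Cd74 at 5.11-fold (2.76 to 10.3). Intervals cover counting error only.

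**Figure D3:**
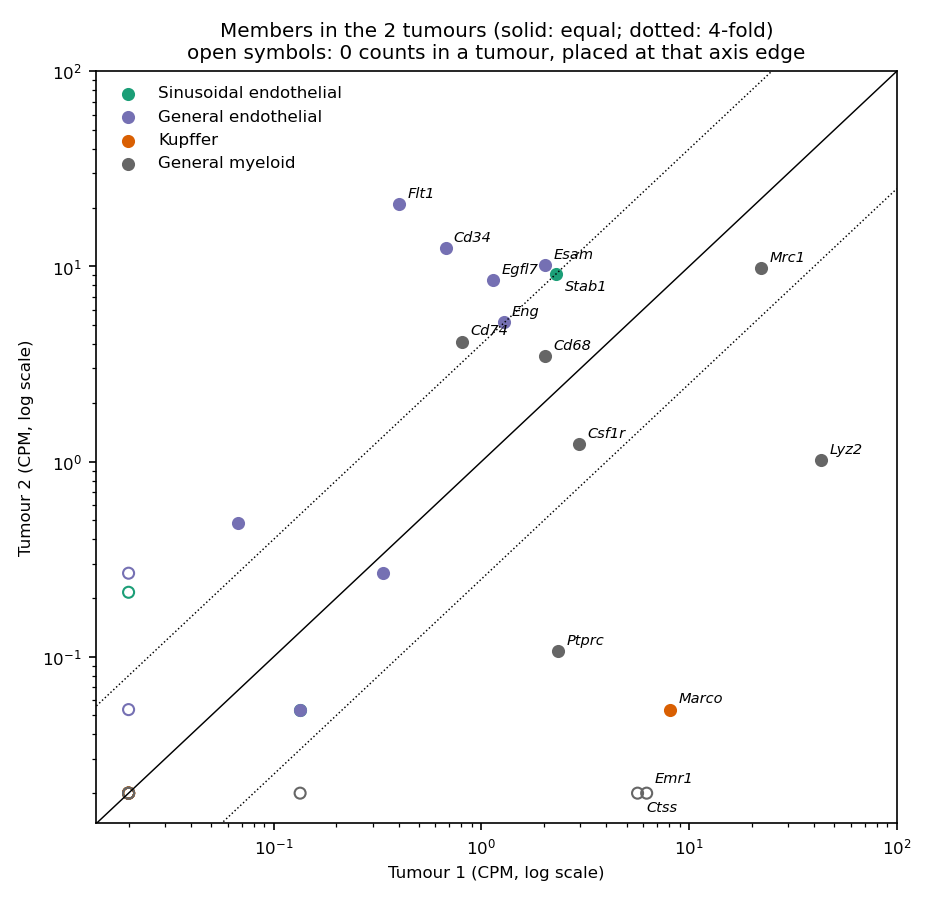
Level of each marker gene in tumour 1 (x axis) and tumour 2 (y axis), in CPM on log scales, coloured by marker group, with a solid line at equality, dotted lines at 4-fold and open symbols at an axis edge for counts of 0. Marco, Lyz2, Ptprc, Emr1 and Ctss lie beyond the line toward tumour 1, and Flt1, Cd34, Egfl7, Esam and Cd74 beyond the line toward tumour 2.

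Some stromal genes were higher in tumour 2 than in tumour 1, as some endothelial markers were. The 12 stellate cell and pericyte markers summed to 4.91 and 456 CPM in tumours 1 and 2, against 239 and 218 CPM in the normal tables. Over 4-fold higher in tumour 2 were 7 of the 7 that reached 1 CPM in a tumour, where 9.27% of all genes were. There is 1 library a side. Among them Col1a1, a collagen I chain, had 30, 3757, 11 and 18 counts in tumour 1, tumour 2 and the normal tables, and Acta2, smooth muscle actin, had 11, 2245, 5 and 7. Markers of quiescent stellate cells did not share this. Reln, a secreted glycoprotein, fell (0 and 3 counts against 1040 and 1077, edgeR adjusted p 0.0274, passing the filter only through normal liver). Lrat, the retinol esterifying enzyme, was at 0 in both tumours, as were Hand2 and Ngfr. Rgs5 had 3 and 5 counts against 137 and 147. Dcn, 1 of the 7, lay below both normal tables in tumour 2, at 8.25 CPM against 68.7 and 62. Lrat, Hand2, Ngfr, Rgs5 and Dcn were named after their values were seen. Flt1, Cd34, Egfl7 and Esam were higher in tumour 2 than in tumour 1. Egfl7 still lay below both normal tables there, at 8.52 CPM against 15.3 and 20.4. The endothelial genes Tie1, Tek, Cdh5, Pecam1 and Kdr stood at 1, 1, 5, 5 and 9 counts in tumour 2. The part of the stromal genes in the levels of Flt1, Cd34, Egfl7 and Esam was not tested.

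Myeloid genes outside the set moved with the macrophage markers of tumour 1. Of 24 such genes, 14 reached 1 CPM in a tumour. Of the 14, 10 were over 4-fold higher in tumour 1 (5.24% of all genes were) and 0 in tumour 2 (9.27%). The summed level of the 24 was 651 and 365 CPM in tumours 1 and 2 against 406 and 396 CPM in the normal tables. Cd14 (382 and 80.1 CPM) and Lgals3 (159 and 267 CPM) made up most of it in the tumours, and the other 22 genes summed to 110 and 17.4 CPM against 399 and 388 CPM, below normal liver in both. Cybb, a subunit of the phagocyte oxidase, had 623, 93, 103 and 107 counts, Gpnmb, a lysosomal glycoprotein, 384, 10, 1 and 1, and Tyrobp, a myeloid signalling adaptor, 33, 1, 36 and 40 (these 3 were chosen after their values were seen). Some other genes of the lineage were below normal liver in tumour 1. Csf1r had 44 counts there against 342 and 375 in the normal tables, and Irf8 had 8 against 55 and 64. Neither was called (edgeR adjusted p 0.0619 and 0.187). Sfpi1, the gene of PU.1, had 1 against 9 and 11 and was not tested. Irf8 and Sfpi1 too were chosen after their values were seen. Bile duct genes differed between the tumours too: 3 of 8 were over 4-fold higher in tumour 1 (5.24% of all genes were) and 0 in tumour 2. Their part in the result was not tested.

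Further genes of each cell type were read from lists drawn up apart from the 31. Of 15 other sinusoidal genes, 14 were tested, 2 fell (5.19% of all genes tested did) and 0 rose. The median log2 fold change was -3.52 beside 0.18 for all genes, with 3 of the 14 passing the low-count filter only through normal liver. Dnase1l3, a secreted DNase, had 0 counts in both tumours and 397 and 410 in the normal tables, at least 245-fold lower (edgeR adjusted p 0.0314), and it too passed the filter only through normal liver. Ehd3, a membrane trafficking protein, had 33 and 69 against 642 and 668 (log2 fold change -4.60, SE 0.66, adjusted p 0.036). Flt4, VEGF receptor 3, was unlike these at 192, 760, 392 and 426 counts (adjusted p 0.604). Of 24 other endothelial genes, 18 were tested and 0 passed in either direction by edgeR (9 lower and 1 higher at an unadjusted p under 0.05, 6 lower and 1 higher by DESeq2). Their median was -4.68 (-3.82 at the bound), and 8 of the 24 were at 0 in both tumours. Of the 18, 10 passed the low-count filter only through normal liver and 2 only through a tumour. The median and the counts of lower genes therefore carry no weight of their own. Ptprb, the vascular phosphatase VE-PTP, had 672 and 481 counts against 1524 and 1637, and S1pr1, a receptor for sphingosine 1-phosphate, had 3 and 236 against 555 and 565.

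Of 15 other Kupffer cell genes, 14 were tested, 2 fell (5.19% of all genes tested did) and 0 rose. The median log2 fold change was -5.55, or -4.33 with genes at 0 in both tumours at their bound. Of the 14, 8 passed the low-count filter only through normal liver, so this median carries no weight of its own. Both genes that fell passed the low-count filter only through normal liver, which set their direction. C6, a complement component that hepatocytes also make, had 1 and 2 counts in the tumours against 9875 and 11550 (edgeR adjusted p 0.018), and Fcna, the lectin ficolin A, had 1 in each against 146 and 161 (adjusted p 0.0359). Slc40a1, the iron exporter ferroportin, was detected in every library at 806, 1048, 3608 and 3830 counts (adjusted p 0.0537). The other myeloid genes had 20 tested, 1 lower and 1 higher (median -1.25). Lgals3, galectin-3, which epithelial and tumour cells also make, rose (2371 and 4993 counts against 32 and 35, log2 fold change 5.83, SE 0.86, adjusted p 0.0374). Cd14, the lipopolysaccharide co-receptor, had 5677 and 1495 counts against 27 and 32 without passing (adjusted p 0.0887).

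Ligands of these receptors were compared with the receptors. Of 6 macrophage growth factors and attractants, 3 rose (2.19% of all genes tested did) and 0 fell. Their median log2 fold change was 5.43, or 4.53 with genes at 0 in normal liver at their bound. Of the 6, 4 passed the low-count filter only through a tumour, so this median carries no weight of its own. Of the 3, Ccl2 and Cx3cl1 passed the low-count filter only through a tumour, which set their direction. Csf1, the ligand of the CSF1 receptor, had 3662 and 7482 counts in the tumours against 80 and 84 in the normal tables (log2 fold change 5.16, SE 0.84, edgeR adjusted p 0.0448), while Csf1r had 44 and 23 against 342 and 375. Ccl2, the monocyte attractant, had 7325 and 4702 against 1 in each normal table (adjusted p 0.0256), while its receptor Ccr2, looked up after the ligand, was at 0 in both tumours against 10 and 13. Cx3cl1, the attractant and adhesion molecule fractalkine, had 788 and 1573 counts against 12 and 12 (log2 fold change 5.69, SE 0.85, adjusted p 0.0386). Its receptor Cx3cr1, also looked up afterwards, differed from the other receptors in lying above both normal tables in each tumour, at 13 and 20 counts against 1 and 1 (log2 fold change 3.05, adjusted p 0.421).

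Of 10 vascular growth factors and co-receptors tested, 0 passed in either direction by edgeR (1 lower and 1 higher at an unadjusted p under 0.05, and the same counts by DESeq2), with a median log2 fold change of 0.59. Vegfa, the ligand of the receptors encoded by Kdr and Flt1, had 3153 and 2826 counts in tumours 1 and 2 against 3323 and 3645 in the normal tables, 212 and 151 CPM against 383 in the mean (log2 fold change -1.08, edgeR adjusted p 0.302). The VEGF co-receptor gene Nrp1 had 1175 and 1738 counts against 3470 and 3877 (adjusted p 0.0885). Between the tumours, 4 of the 10 were over 4-fold higher in tumour 2 (9.27% of all genes were) and 0 in tumour 1. These 4 were Angptl2 (6 and 736 counts in tumours 1 and 2), Angpt2 (4 and 77), Figf (4 and 68) and Pgf (11 and 74). Flt1, Cd34, Egfl7 and Esam were also higher in tumour 2 than in tumour 1, Egfl7 while below both normal tables. Kdr at 0.0672 and 0.482 CPM was near 0 in tumours where Vegfa was detected at 212 and 151 CPM.

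**Figure D4:**
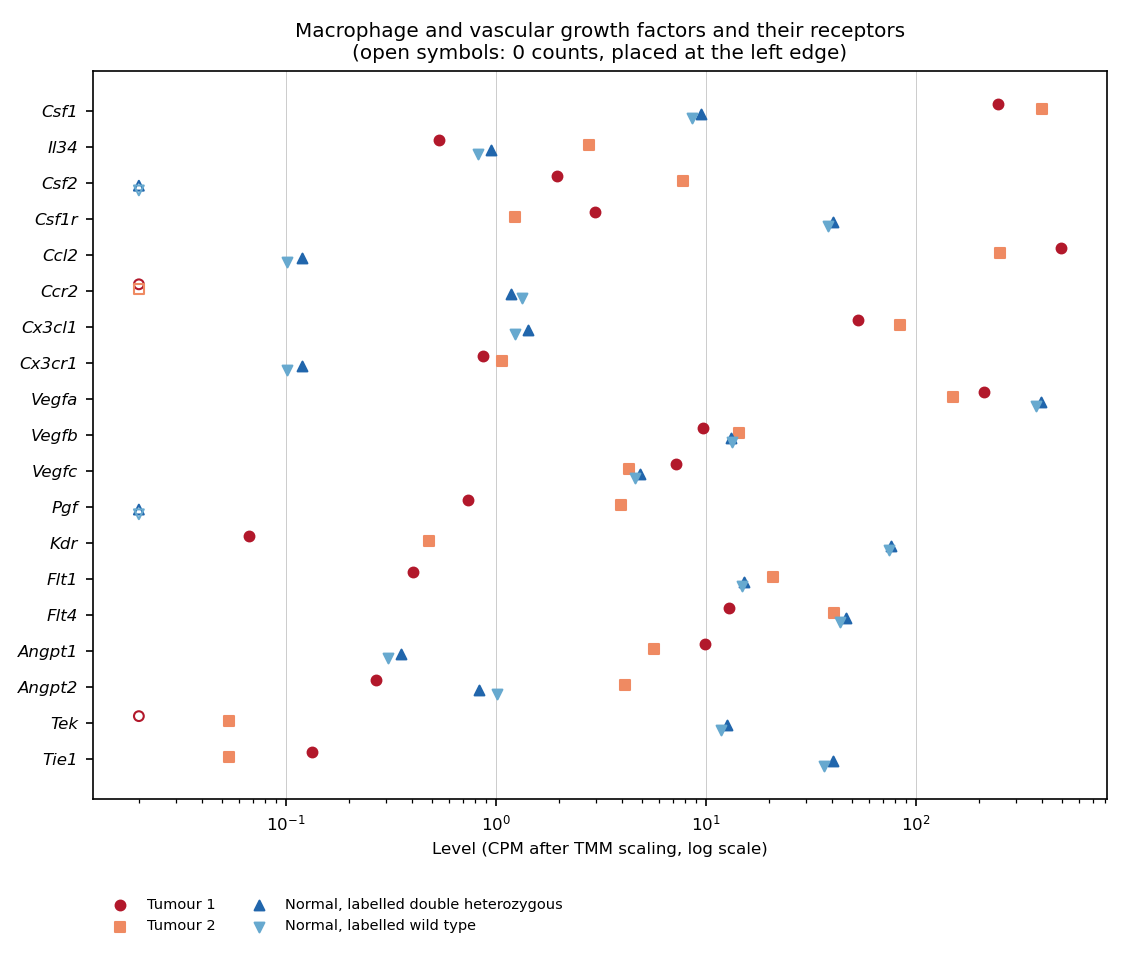
Level of macrophage and vascular growth factors and of their receptors in every library (x axis, CPM after TMM scaling, log scale), with open symbols at the left edge for counts of 0. Csf1, Ccl2 and Cx3cl1 lie to the right of normal liver in both tumours, and Csf1r, Kdr, Tie1 and Tek to its left.

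Markers of other cells were set beside the 31 genes to check the labels. T cell markers were near 0 in the tumours: the 12 genes summed to 9 and 33 counts in tumours 1 and 2 against 85 and 111 in the normal tables, 7 of the 12 were at 0 in both tumours, and Cd3e, a chain of the T cell receptor complex, was at 0 in both against 23 and 35. Zap70, a T cell kinase, had 0 and 9 counts against 30 and 37. Of the 4 tested, 0 passed in either direction by edgeR (1 lower and 0 higher at an unadjusted p under 0.05, 0 by DESeq2). The defining T cell genes thus did not go with the word T cell in the descriptions of the tumours. The 12 B cell, NK cell and neutrophil markers summed to 1.61 and 1.82 CPM against 6.28 and 7.99 CPM, 9 of them at 0 in both tumours. The calprotectin genes S100a8 (15, 19, 2 and 5 counts in tumours 1 and 2 and the normal tables) and S100a9 (9, 14, 8 and 9) were detected in every library. Both normal tables held endothelial and Kupffer transcripts whichever of the words liver or hepatocytes applies, with Clec4f at 509 and 556 counts.

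Epithelial markers changed as well, hepatocyte genes in the direction of most of the 31 genes and bile duct genes in the other. Of the 10 hepatocyte markers 9 fell (5.19% of all genes tested did) and 0 rose. The summed level went from 235727 and 224433 CPM in the normal tables to 380 and 546 CPM in tumours 1 and 2. Of the genes that fell, Apoc3 and Serpina1a passed the low-count filter only through normal liver, which set their direction. Alb, serum albumin, had 123 and 807 counts in the tumours against 1083426 and 1194814 (log2 fold change -12.25, SE 2.09, edgeR adjusted p 0.0479). The plasma protein genes Serpina1a, Ahsg, Apoa2, Apoc3, Apoa1 and Ttr had log2 fold changes from -15.18 to -13.26, and that of Trf was -6.90. Serpina1a and Trf share 65.2% and 63.9% of their 31-base words with another gene. Of the 8 bile duct markers 3 rose (2.19% of all genes tested did) and 0 fell, from 55.4 and 51.7 CPM to 2535 and 2125 CPM. Among the 3 was the keratin gene Krt19 (9641 and 5757 counts against 43 and 46, edgeR adjusted p 0.0436). The others were Krt7 (3500 and 3925 against 6 and 8, adjusted p 0.0226) and Spp1, osteopontin (22654 and 29529 against 254 and 266, adjusted p 0.0463, with 14.3% shared sequence). Krt7 passed the low-count filter only through a tumour, which set its direction. The labelled tissue of the tumours is liver, and its defining hepatocyte transcripts were at a small part of their normal level there. The part of this change in the levels of the endothelial and macrophage markers was not tested.

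**Figure D5:**
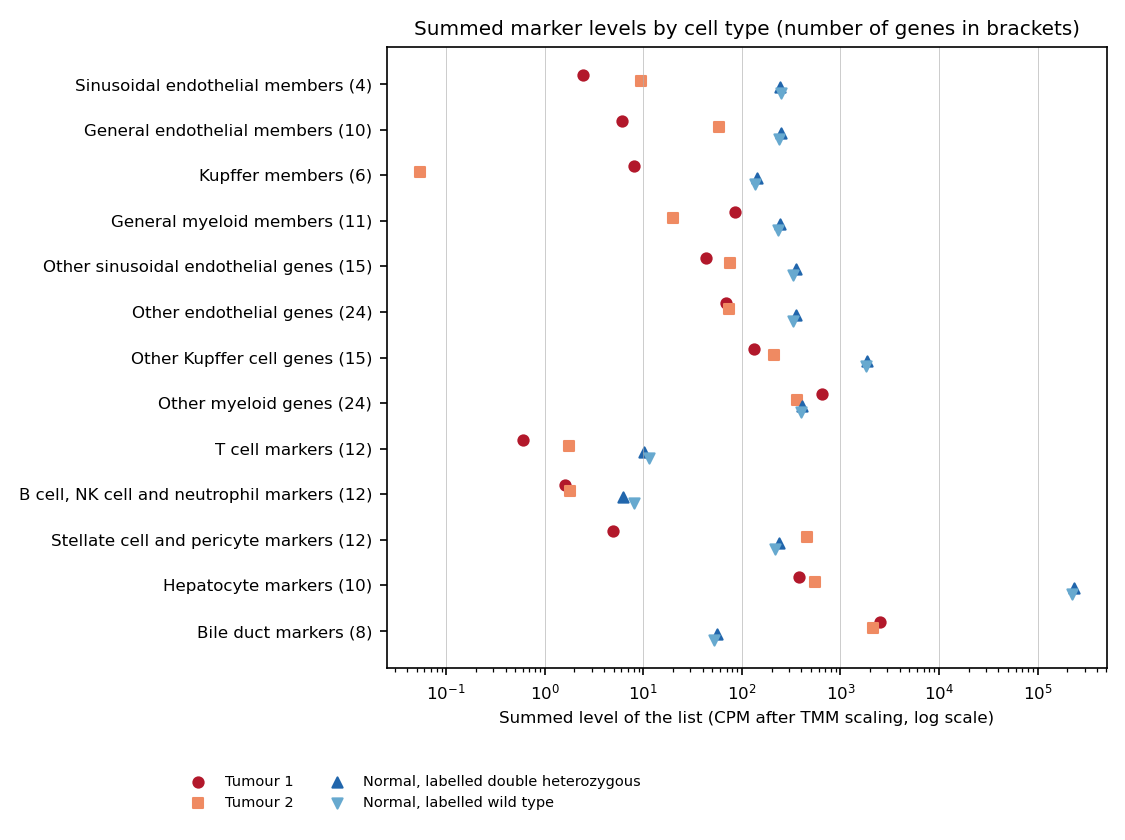
Summed level of each marker list in every library (x axis, CPM after TMM scaling, log scale), with the number of genes in brackets. The endothelial and Kupffer lists lie lower in both tumours, the stellate list separates tumour 1 (4.91 CPM) from tumour 2 (456 CPM), and the bile duct list is the one shown that lies to the right of normal liver in both tumours.

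The normal tables, one labelled double heterozygous and one wild type, differed little in these genes. The log2 ratio of the first to the second ran from -0.41 to 0.19 over the 31 members, with a median of 0.07. None of the 30 members at 1 CPM or more was over 2-fold apart (0 of 30, where 5.83% of 12547 genes were). The tables share counts, so this is not a measure of what the genotype does, and no test was made. Per kilobase of the longest coding transcript, the level in the mean normal library was highest for Cd74 (31.2 CPM per kilobase), followed by Clec4f (23.7), Cd5l (17.4), Lyz2 (16.7), Clec4g and Stab2 (13.7 each). The lowest were Cd34 (0.258), Fcgr1 (0.467) and Marco (0.856). In tumour 1 Lyz2 stood at 32.9 CPM per kilobase, and in tumour 2 Egfl7 at 6.12, Esam at 5.46 and Cd34 at 4.84. With 1 normal library, neighbours in this order cannot be separated from replicate spread.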

How the data were processed

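The values are raw read counts per gene as deposited by the authors, 1 table for each of the 4 libraries. Per the labels' protocols, TRIZOL total RNA went into Illumina TruSeq libraries. The submitters' processing notes name mm9 and the tools TopHat2 2.0.10, HTSeq, FastQC, Trimmomatic and DESeq2, with no role stated. Whether counting used strand is not given in the sources used here. Each library's 5 lines that name no gene were left out (alignments outside genes were 13.6% to 31.5% of all lines, those placed more than once 30.7% to 51.5%). Genes carry no coordinates, since the reference in use is GRCm38. It served for promoters and for the share of 31-base words that another gene also holds, stated where over 10%.

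The members and lists were chosen with earlier results of these data known, and so was the use of the mean of the normal tables as 1 library. The test of tumours against normal liver was edgeR 4.0.16 in R 4.3.3 (TMM scaling, filterByExpr at 10 counts, quasi-likelihood F test). These 3 libraries leave 1 residual degree of freedom, with a common dispersion of 0.442 and a median of 3.33 prior degrees of freedom. Normal liver has no replicate and takes its spread from the tumours. The p-values measure the spread between these samples, which may be technical. SE values come from the fold change and its F statistic and are approximate near 0 counts. Log2 ratios without a test use a prior count of 2, and those between tumours need 1 CPM in either. Bounds use 3 counts per library. The fit was tested on simulated data. All members are named, and of each other list up to 6 called genes and its 2 highest by mean CPM. Any further gene of these lists that the text names was chosen outside this rule, with its values known. A called gene of the other myeloid list is not reported here. Alternatives were other scalings and filters, each normal table alone, both as separate libraries, DESeq2 1.42.0, another prior count and leaving out each tumour.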

Additional observations from a re-analysis of the deposited data

How the results depend on the processing

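The 7 members called lower became 11 with RLE size factors, 3 with library totals, 16 with no filter beyond 1 count, 20 with both normal tables as separate libraries and 18 with DESeq2. All 7 were among the calls under each of these except library totals. With upper quartile scaling, a minimum of 1 CPM or the wild type table alone there were 7, and with the double heterozygous table alone 6. No member was called higher under any of these. Over all genes, the 752 lower and 317 higher became 472 and 631 with library totals, 1388 and 877 with no filter, 3157 and 3058 with separate normal tables, and 1740 and 1621 with DESeq2. The separate tables count shared reads as replicates. The cause of the other shifts was not tested. The direction turned for Lyz2 with RLE (-0.0463), at least 1 CPM (-0.0040), the wild type table alone (-0.0396) and DESeq2 (-0.0454), and for Flt1 (0.91) and Esam (0.94) with library totals, none called. The count of members over 4-fold lower was 25 without tumour 1 and 21 without tumour 2, and 23 with a prior count of 0.5. Of the 10 members over 4-fold apart between tumours, 4 reached 10 CPM, and library totals gave 12. No paired analysis was possible because the groups share fewer than 2 replicate numbers. A count of 0 limits a tumour level only to below 0.202 and 0.161 CPM in tumours 1 and 2.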
